A study of Rattus norvegicus with 6 samples.

Results

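ABC transporter genes encode membrane pumps of the ATP-binding cassette superfamily, and their transcripts were compared between laser-captured pancreatic duct glands of HIP rats and of wild-type rats. The members were all listed genes whose symbol is Abc followed by a subfamily letter from a to g and a number, with or without a final a or b, apart from Abcc9. This rule found 40 of the 15677 distinct gene symbols, 8 of subfamily A, 9 of B, 9 of C, 4 of D, 1 of E, 3 of F and 6 of G. Both groups were Sprague-Dawley rats. HIP rats express human islet amyloid polypeptide from a transgene driven in beta cells, were pre-diabetic and are used to model type 2 diabetes. Wild-type (WT) rats did not carry the transgene, and ages are not given in the sources used here. Pancreatic duct glands are mucin-producing pockets in the wall of the larger ducts, and they were recognised by morphology, cut out by laser and sequenced as total RNA. There were 3 HIP libraries (HIP30, HIP2 and HIP3) and 3 WT libraries (WT26, WT1 and WT4), named by the number in their titles. The labels do not say that each library was a separate animal, so the p-values reflect only library-to-library spread, which may be technical.

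ABC proteins bind and split ATP and use the energy to carry a substrate across a membrane. Subfamilies A and G mostly move cholesterol, phospholipids and retinoids, subfamily B and C pumps export drugs, bile salts and conjugates with glutathione or glucuronate, and subfamily D feeds fatty acids into peroxisomes. Members of subfamilies E and F have the ATP-binding domains but no membrane part, and work on ribosomes. In the pancreatic and biliary ducts, such pumps are known for clearing conjugates and bile salts from epithelial cells and for protecting stem-like cells from toxins.

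The libraries held 15141136, 16100854 and 16709667 reads in HIP30, HIP2 and HIP3, against 17574682, 17446410 and 15821742 reads in WT26, WT1 and WT4. Levels are given as scaled CPM, a count unit scaled to library depth and corrected for library composition. They are not set against each other between genes, because they are not divided by transcript length. Of the 40 members, 35 had reads in all 6 libraries and 26 had at least 50 reads in each. A count of 0 reads allows up to 0.179 to 0.184 scaled CPM (3 reads), a limit that covers counting error only. Transcripts of duct epithelium were present in every library, with 10 of 10 listed markers read in all 6 and sums of 11168, 10580.2 and 13203 scaled CPM in HIP30, HIP2 and HIP3, against 27169, 14972 and 10782 scaled CPM in WT26, WT1 and WT4. Libraries of 1 group differed in transcripts of other cells. In HIP30 and in WT26, 9 of the 10 listed beta cell markers had no read, while HIP3 and WT4 carried 5092 and 11360 scaled CPM of them, most of it from the insulin genes Ins1 and Ins2. Marker sums of 4 other lists separated the groups. All 12 fibroblast markers were read in every library, with sums of 669.97, 962 and 1989 scaled CPM in HIP30, HIP2 and HIP3, against 2018, 2371 and 2428 scaled CPM in WT26, WT1 and WT4. HIP3 lay just under WT26, and without Gsn, at 143 scaled CPM in HIP3 and 481 scaled CPM in WT26, the groups overlapped. Dcn, Lum, Dpt, Mmp2 and Serpinf1 were lower in every HIP library than in any WT library. The other listed fibroblast markers overlapped between the groups, and Col1a1 was highest in HIP3. Adipocyte markers, of which 5 of 9 were read in all libraries, had sums of 50.9, 65.2 and 77.9 scaled CPM in HIP30, HIP2 and HIP3, against 160.01, 119 and 89.5 scaled CPM in WT26, WT1 and WT4. That separation rested on Adipoq, and without it the groups overlapped. Adipoq had 19.5, 31.9 and 59.6 scaled CPM in HIP30, HIP2 and HIP3, against 150, 99.98 and 61.2 scaled CPM in WT26, WT1 and WT4. Fabp4, at few reads, was higher in every HIP library than in any WT library, and Cidec and Lipe overlapped between the groups. The liver-type and the smooth muscle and pericyte sums, whose separation also rested on few markers, are given with the genes they accompany. The part of fibroblasts and adipocytes in the members that were lower in HIP was not tested. In tissue pieces like these, fewer cells of a type and less RNA per cell cannot be told apart.

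No ABC transporter gene passed the test between HIP and WT glands, as no difference exceeded the spread between libraries once all genes were taken into account. Of the 40 members, 37 had enough reads to be tested, and 0 passed limma's test at a Benjamini-Hochberg adjusted p under 0.05, with 0.691 as the smallest adjusted p. Over all 12102 tested genes, 0 passed as well (0%). At an unadjusted p under 0.05, 3 of the 37 members stood apart: Abcg2 was higher in HIP, and Abca4 and Abcc3 were lower. That is 8.11% of the tested members, against 6.54% of all tested genes (3.29% higher and 3.26% lower in HIP). In 6 of the 37 members, or 16.2%, the HIP and WT libraries did not overlap, against 9.54% of all tested genes. Abca2, Abcf3 and Abcg2 were higher in all HIP libraries, where 5.27% of all genes were, and 3 members, among them Abca4 and Abcc3, were lower, where 4.27% were. With library totals in place of composition factors, Abcb8 joined them, for 7 members. The count of 3 rested on the libraries included: it was 8 without WT4 and 3 without HIP3, where 13.3% and 14.9% of all tested genes reached this p, 2 without HIP30, where 2.31% did, and 1 without HIP2, WT26 or WT1, where 1.94% to 2.79% did. Signs were mixed, as 16 log2 differences were positive and 21 negative. Their median was -0.03, against 0.01 over all tested genes.

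**Figure D1:**
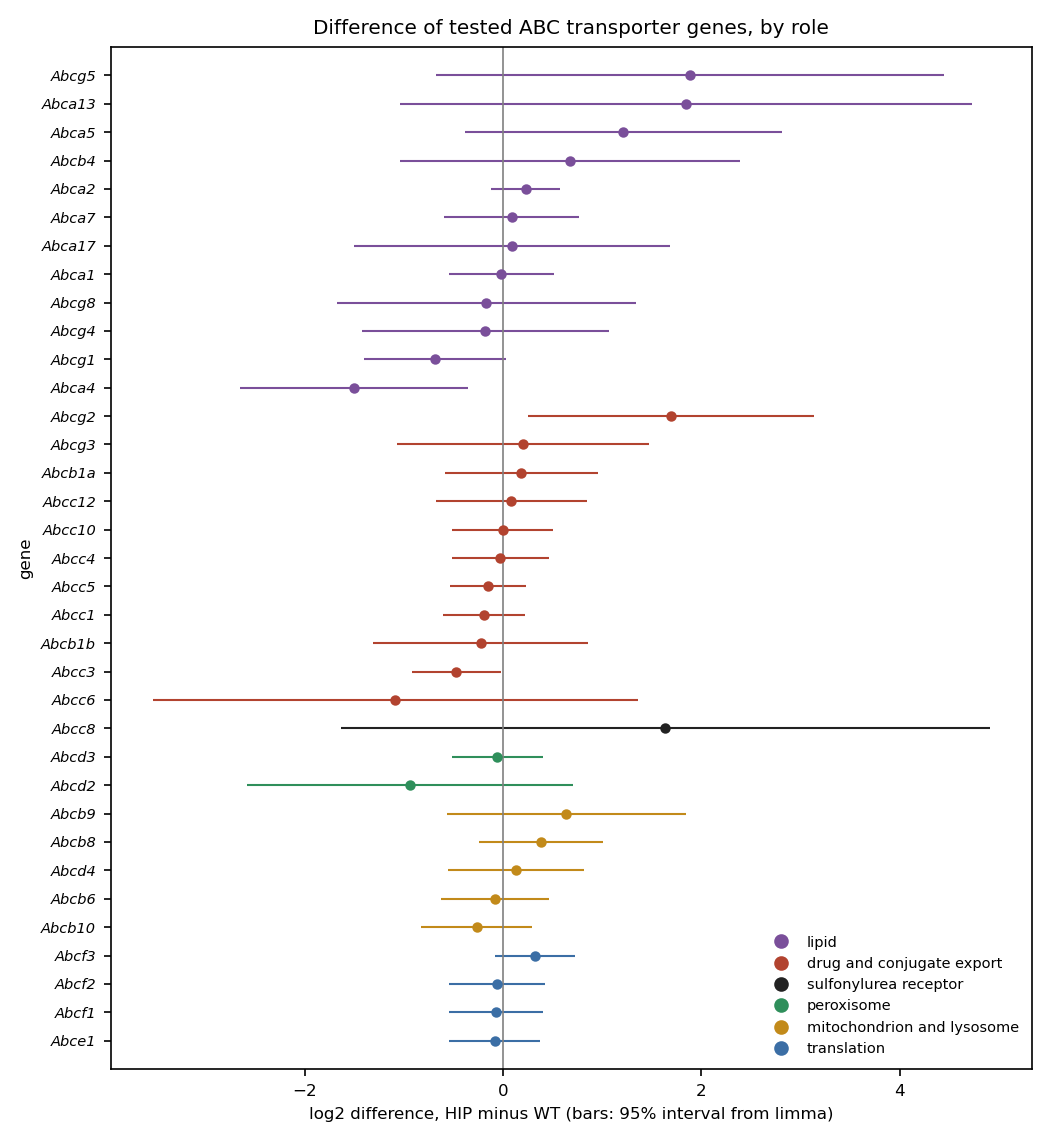
Log2 difference of 35 of the 37 tested members, HIP minus WT, with its 95% interval from limma as a bar, grouped by role on the vertical axis. The differences ran from -1.50 for Abca4 to 1.89 for Abcg5, and the intervals of Abcg2, Abca4 and Abcc3 alone leave out 0.

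Promoter sequence is shown for the genes with the lowest p on either side, Abca4 and Abcg2, and for the shared interval of the neighbours Abcg5 and Abcg8, so that the results can be read against it. Sequences are RefSeq's for the assembly GRCr8, 5′ to 3′ on the plus strand, and capitals mark letters that match 1 of 6 motifs on either strand. The motifs, chosen after the sequences were seen, were the GC box GGGCGG, the CCAAT box, the TATA box TATAAA, the cyclic AMP response element TGACGTCA, the antioxidant response core TGACNNNGC and the GATA site AGATAA.
The 250 bases before the start of Abca4, chr2:212849235-212849484, hold 1 GATA match:
Abca4: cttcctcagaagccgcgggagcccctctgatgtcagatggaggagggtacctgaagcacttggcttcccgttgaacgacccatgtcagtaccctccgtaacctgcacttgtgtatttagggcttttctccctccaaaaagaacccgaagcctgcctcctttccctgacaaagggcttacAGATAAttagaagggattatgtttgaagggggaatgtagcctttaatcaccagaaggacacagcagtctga
The 250 bases before the start of Abcg2, chr4:89075224-89075473, hold 4 GC boxes and 1 cyclic AMP response element:
Abcg2: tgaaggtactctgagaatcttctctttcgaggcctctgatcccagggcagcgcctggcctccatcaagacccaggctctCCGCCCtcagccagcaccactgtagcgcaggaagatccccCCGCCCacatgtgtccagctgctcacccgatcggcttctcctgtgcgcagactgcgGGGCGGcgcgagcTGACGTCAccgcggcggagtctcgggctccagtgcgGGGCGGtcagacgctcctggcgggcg
Abcg5 and Abcg8 start in opposite directions, and the 205 bases between their starts, chr6:15717731-15717935, hold 1 CCAAT box, 1 TATA box, 1 antioxidant response core and 2 GATA matches:
Abcg5-Abcg8 interval: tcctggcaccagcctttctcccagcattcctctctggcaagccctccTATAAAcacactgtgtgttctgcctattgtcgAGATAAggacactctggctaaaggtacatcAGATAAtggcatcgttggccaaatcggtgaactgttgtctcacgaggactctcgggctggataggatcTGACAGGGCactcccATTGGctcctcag

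RefSeq windows of 250 bases were found for 31 of the 40 members. A GC box stood in 20 of the 31 windows (64.5%), against 30.5% of all 33469 windows, and the cyclic AMP response element in 3 (9.68%), those of Abcg2, Abce1 and Abcf2, against 1.59%. TATA boxes stood in 5 member windows (16.1%, against 12.9% of all) and CCAAT boxes in 12 (38.7%, against 34.0%). The antioxidant response core was in 2 (6.45%, against 10.1%) and the GATA site in 3 (9.68%, against 10.3%). The windows of Abcg5 and Abcg8 overlap and share their matches. These matches describe letters in the window and not sites in use. The member windows were reduced to a single window a gene. The 33469 windows were not, and they were not limited to genes listed in these data. The shares of member windows and of all windows are thus from unlike sets.

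The 13 lipid carriers included the members at either end of the range. Of the 12 tested, 7 log2 differences were positive and 5 negative around a median of 0.09, and 0 passed limma's test. Abca4, a flippase for retinal-lipid adducts known from photoreceptors, had 3.95, 12.3 and 11.3 scaled CPM in HIP30, HIP2 and HIP3, against 31.5, 26.1 and 15.6 scaled CPM in WT26, WT1 and WT4. Every HIP library was below every WT library, and HIP30 and WT26 lay at the extremes. The means were 9.17 ± 4.54 scaled CPM in HIP and 24.4 ± 8.09 scaled CPM in WT (SD, n = 3 each), a log2 difference of -1.50 (SE 0.50, adjusted p = 0.691 by limma). Without HIP30 the log2 difference was -0.99. The sum of the duct epithelium markers was also highest in WT26 and next in WT1, and the part of epithelial content in the Abca4 values was not tested.

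Abca1, which loads cholesterol onto apolipoprotein A-I, and Abcg1, which passes it to high-density lipoprotein, are the main cholesterol exporters of macrophages and many epithelia. Abca1 had 65.7, 76.5 and 55.3 scaled CPM in HIP30, HIP2 and HIP3, against 51.0, 75.1 and 75.2 scaled CPM in WT26, WT1 and WT4. The groups overlapped fully, with a log2 difference of -0.02 (SE 0.23, 95% interval -0.55 to 0.51, adjusted p = 0.988 by limma). Its sign turned with library totals (0.06). Abcg1 had 19.5, 21.6 and 13.4 scaled CPM in HIP30, HIP2 and HIP3, against 21.0, 31.9 and 35.4 scaled CPM in WT26, WT1 and WT4. HIP2 was slightly above WT26, and the other HIP libraries were below all WT libraries. The log2 difference of Abcg1 was -0.69 (SE 0.31, 95% interval -1.40 to 0.03, adjusted p = 0.691 by limma). Of 15 listed myeloid markers, 14 were read in all libraries, with sums of 2549, 2545 and 686 scaled CPM in HIP30, HIP2 and HIP3, against 461, 693 and 884 scaled CPM in WT26, WT1 and WT4. The high sums of HIP30 and HIP2 came from Mpeg1 alone, which had 0 reads in WT26. Without it WT4 had the highest sum, as the other 14 markers came to 619.5, 599.9 and 542 scaled CPM in HIP30, HIP2 and HIP3, against 461, 512 and 699.8 scaled CPM in WT26, WT1 and WT4. The part of myeloid cells in the Abcg1 and Abca1 values was not tested.

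Abca2, a sterol and sphingolipid carrier of lysosomes, had the smallest ratio of highest to lowest library among the members, 1.24. It had 190.5, 192 and 174 scaled CPM in HIP30, HIP2 and HIP3, against 160.2, 155 and 160.1 scaled CPM in WT26, WT1 and WT4. All 3 HIP libraries were above the WT libraries, by a log2 difference of 0.23 (SE 0.15, adjusted p = 0.736 by limma) and with coefficients of variation of 5.47% in HIP and 2.05% in WT. Abca5, another lysosomal member, had 17.6, 24.97 and 11.9 scaled CPM in HIP30, HIP2 and HIP3, against 2.38, 9.33 and 18.1 scaled CPM in WT26, WT1 and WT4. WT4 was level with HIP30 and WT26 was far below the rest. The log2 difference of Abca5 was 1.21 (SE 0.69, adjusted p = 0.692 by limma), and 0.42 without WT26.

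Abcg5 and Abcg8 form 1 pump that returns plant sterols and cholesterol to bile and gut, and both were close to the limit of detection. Abcg5 had 24, 18 and 3 reads in HIP30, HIP2 and HIP3, against 0, 0 and 11 reads in WT26, WT1 and WT4. Those reads came to 1.46, 1.10 and 0.184 scaled CPM in the HIP libraries, against 0, 0 and 0.669 scaled CPM in the WT libraries. WT4 lay between HIP2 and HIP3. The log2 difference of 1.89 (SE 1.11, adjusted p = 0.7000 by limma) depends on what is added to a count of 0. It was 1.25 with 5 reads added and 3.04 with 0.5 reads added. Abcg8 had 13, 25 and 12 reads in HIP30, HIP2 and HIP3, against 19, 11 and 28 reads in WT26, WT1 and WT4, with full overlap. All HIP libraries and WT4 had reads of both partners, while WT26 and WT1 had reads of Abcg8 and none of Abcg5.

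Abca13, a large member of little known substrate, had 0.304, 0.794 and 2.63 scaled CPM in HIP30, HIP2 and HIP3, against 0, 0 and 1.46 scaled CPM in WT26, WT1 and WT4. Its log2 difference of 1.84 (SE 1.25, adjusted p = 0.741 by limma) again set reads against 2 empty libraries. Abcb4, which flips phosphatidylcholine into bile, had 1.95, 2.75 and 1.65 scaled CPM in HIP30, HIP2 and HIP3, against 1.31, 0.430 and 3.16 scaled CPM in WT26, WT1 and WT4. WT4 and WT1 enclosed the HIP libraries, and the log2 difference was 0.67 (SE 0.74, adjusted p = 0.856 by limma), or 0.02 without WT1. Abca7, a phospholipid exporter, lay at 11.97 to 18.3 scaled CPM in HIP and 12.2 to 15.6 scaled CPM in WT. Abcg4, known for sterol export in brain, lay at 2.32 to 4.23 scaled CPM in HIP and 2.58 to 7.05 scaled CPM in WT, and Abca17 at 1.22 to 1.59 scaled CPM in HIP and 0.737 to 3.22 scaled CPM in WT. Abca15 did not pass the filter on low counts, with 0, 2 and 11 reads in HIP30, HIP2 and HIP3, against 0, 0 and 60 reads in WT26, WT1 and WT4.

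Genes that work with the lipid carriers did not pass the test either. Of 14 listed genes, among them the oxysterol receptors Nr1h2 and Nr1h3 and their targets, 13 were tested, with 3 positive and 10 negative differences, a median of -0.15 and 0 past limma's test. The 2 with the lowest p were Npc1 and Apoe. Npc1, which lets cholesterol out of lysosomes, had 78.5, 111 and 112 scaled CPM in HIP30, HIP2 and HIP3, against 178, 189 and 119 scaled CPM in WT26, WT1 and WT4. Apoe, a lipid acceptor for these pumps, had 47.8, 42.6 and 49.0 scaled CPM in HIP30, HIP2 and HIP3, against 65.2, 57.4 and 78.7 scaled CPM in WT26, WT1 and WT4. In both genes all HIP libraries were below all WT libraries, by log2 differences of -0.68 (SE 0.24) for Npc1 and -0.52 (SE 0.20) for Apoe (adjusted p = 0.691 for each by limma).

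**Figure D2:**
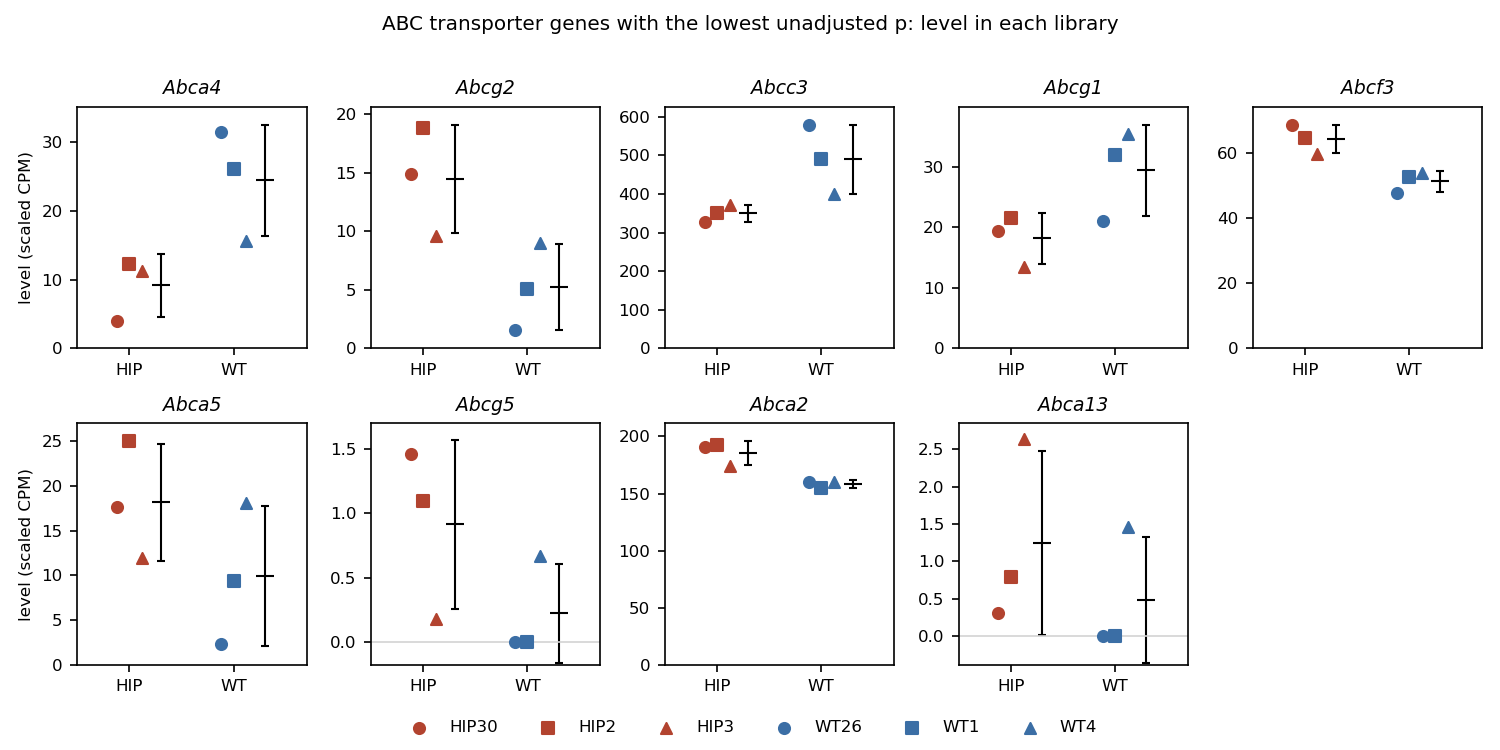
Level in scaled CPM of 9 of the 10 tested members with the lowest unadjusted p, 1 panel a gene, with 3 HIP libraries on the left and 3 WT libraries on the right. Markers are libraries and bars are the mean with 1 SD (n = 3). Abcg2, Abca2 and Abcf3 are higher in all HIP libraries and Abca4 and Abcc3 lower, while in Abcg1, Abca5, Abcg5 and Abca13 the groups overlap.

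The 13 members that export drugs, bile salts and conjugates showed 4 positive and 7 negative differences among the 11 tested, with a median of -0.03 and 0 past limma's test. Abcg2, the breast cancer resistance protein, pumps drugs, urate and porphyrins and marks dye-excluding stem-like cells in many tissues. It had 14.9, 18.9 and 9.62 scaled CPM in HIP30, HIP2 and HIP3, against 1.61, 5.10 and 8.997 scaled CPM in WT26, WT1 and WT4. All HIP libraries were above all WT libraries, but HIP3 and WT4 nearly met, with 157 reads in HIP3 and 148 reads in WT4. The means were 14.5 ± 4.64 scaled CPM in HIP and 5.23 ± 3.70 scaled CPM in WT (SD, n = 3 each), a log2 difference of 1.69 (SE 0.62, 95% interval 0.25 to 3.13, adjusted p = 0.691 by limma). Leaving out WT26 brought the difference to 1.03, and leaving out WT4 to 2.23. Endothelial cells also express Abcg2. All 11 listed endothelial markers were read in every library, and their sums were 205, 191 and 283 scaled CPM in HIP30, HIP2 and HIP3, against 213, 191 and 322 scaled CPM in WT26, WT1 and WT4. Those sums overlapped between the groups, and the part of endothelial cells in the Abcg2 values was not tested.

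Abcc3 exports glucuronides and bile salts across the basolateral side of duct and liver epithelium. It had 328, 350.1 and 372 scaled CPM in HIP30, HIP2 and HIP3, against 578, 491 and 399.8 scaled CPM in WT26, WT1 and WT4. The HIP libraries lay close together below the 3 WT libraries, which were spread. The means were 350.3 ± 21.9 scaled CPM in HIP and 489.8 ± 89.2 scaled CPM in WT (SD, n = 3 each), a log2 difference of -0.47 (SE 0.20, 95% interval -0.92 to -0.02, adjusted p = 0.691 by limma). Among the WT libraries Abcc3 had the same order as the sum of duct epithelium markers, with WT26 highest and WT4 lowest. Across groups it had not, since WT4 was below HIP30 and HIP3 in that sum and above them in Abcc3. The part of epithelial content in its values was not tested.

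The other pumps of this kind with ample reads overlapped between HIP and WT. Abcc1, an exporter of glutathione conjugates, had 114, 128 and 144 scaled CPM in HIP30, HIP2 and HIP3, against 169, 139.8 and 132 scaled CPM in WT26, WT1 and WT4, a log2 difference of -0.19 (SE 0.18, 95% interval -0.61 to 0.22, adjusted p = 0.824 by limma). Abcc4, which exports cyclic nucleotides and bile salts, had 117, 145 and 165 scaled CPM in HIP30, HIP2 and HIP3, against 115, 156 and 165 scaled CPM in WT26, WT1 and WT4. Its groups covered the same span, with a log2 difference of -0.03 (SE 0.21, 95% interval -0.52 to 0.47, adjusted p = 0.984 by limma) and a sign that turned with library totals (0.05). Abcc5, another cyclic nucleotide exporter, lay at 137 to 158 scaled CPM in HIP and 145 to 180.0 scaled CPM in WT. Abcc10 lay at 35.2 to 39.4 scaled CPM in HIP and 29.8 to 42.9 scaled CPM in WT, and Abcc12 at 14.3 to 21.0 scaled CPM in HIP and 11.7 to 22.0 scaled CPM in WT.

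Abcb1a and Abcb1b, the 2 rodent forms of the multidrug pump P-glycoprotein, lie side by side with Abcb4 on the GRCr8 assembly. They are so alike that reads can be assigned to the wrong one, so their values are uncertain. Abcb1a had 18.0, 14.9 and 9.80 scaled CPM in HIP30, HIP2 and HIP3, against 10.9, 11.6 and 14.04 scaled CPM in WT26, WT1 and WT4, a log2 difference of 0.19 (SE 0.33, adjusted p = 0.929 by limma). Abcb1b had 4.32, 3.42 and 6.004 scaled CPM in HIP30, HIP2 and HIP3, against 3.22, 6.39 and 6.93 scaled CPM in WT26, WT1 and WT4, a log2 difference of -0.22 (SE 0.47, adjusted p = 0.943 by limma). Within each gene the groups overlapped, and the sign for Abcb1a turned when HIP30 was left out. Abcg3, a rodent relative of Abcg2 with near copies of its own, lay at 4.29 to 8.97 scaled CPM in HIP and 3.04 to 10.4 scaled CPM in WT.

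The canalicular pumps of the liver were at or near the limit of detection. Abcb11, the bile salt export pump, had 0, 0 and 5 reads in HIP30, HIP2 and HIP3, against 0, 0 and 5 reads in WT26, WT1 and WT4. Abcc2, which exports bilirubin conjugates at the apical side, had 4, 1 and 9 reads in HIP30, HIP2 and HIP3, against 7, 10 and 26 reads in WT26, WT1 and WT4. Neither passed the filter on low counts. Fitted without that filter, the log2 difference was 0.0027 (SE 0.72) for Abcb11 and -1.30 (SE 0.73) for Abcc2, with adjusted p of 0.99996 for Abcb11 and 0.806 for Abcc2 by limma, so that no difference was detectable at this depth. Abcc6, a liver and kidney member whose loss calcifies soft tissue, had 0, 21 and 12 reads in HIP30, HIP2 and HIP3, against 16, 8 and 33 reads in WT26, WT1 and WT4.

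The receptors and regulators that drive the export pumps in liver and gut gave 6 positive and 4 negative differences among 10 tested genes, a median of 0.05 and 0 past limma's test. Hnf4a, a master regulator of hepatocyte and gut epithelium, had 365, 413 and 650.0 scaled CPM in HIP30, HIP2 and HIP3, against 759, 692 and 413 scaled CPM in WT26, WT1 and WT4, a log2 difference of -0.38 (SE 0.31, adjusted p = 0.797 by limma). Nfe2l2, which turns on conjugation and export under oxidative stress, had 472, 549 and 616 scaled CPM in HIP30, HIP2 and HIP3, against 564, 792 and 598 scaled CPM in WT26, WT1 and WT4, a log2 difference of -0.25 (SE 0.21, adjusted p = 0.812 by limma). HIP3 exceeded the lowest WT library in both genes.

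Uptake carriers for organic ions bring such compounds into cells. Of 15 listed carriers 10 were tested, with 5 positive and 5 negative differences, a median of -0.07 and 0 past limma's test. Slc10a1, the sodium-dependent bile salt importer of hepatocytes, had 17.6, 12.3 and 7.78 scaled CPM in HIP30, HIP2 and HIP3, against 4.11, 4.79 and 5.78 scaled CPM in WT26, WT1 and WT4. All HIP libraries were higher, by a log2 difference of 1.27 (SE 0.41, adjusted p = 0.691 by limma). Liver-type markers summed to more in every HIP library than in any WT library, which rested on Ttr and Tf. Of the 8 markers, 5 were read in all libraries, with sums of 713, 494 and 426 scaled CPM in HIP30, HIP2 and HIP3, against 281, 277 and 379 scaled CPM in WT26, WT1 and WT4. Without Ttr and Tf the sums were 134, 142 and 202 scaled CPM in HIP30, HIP2 and HIP3, against 265, 207 and 128 scaled CPM in WT26, WT1 and WT4, and the groups overlapped. Of that list Alb, Ttr and Fgb were at 0 in some library, and the part of such transcripts in the Slc10a1 values was not tested.

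Abcc8 is the sulfonylurea receptor, which does not export but regulates a potassium channel, best known from beta cells. It spanned the widest range between libraries among the members with reads in all 6. Abcc8 had 7.84, 4.03 and 3.25 scaled CPM in HIP30, HIP2 and HIP3, against 0.0596, 1.17 and 15.7 scaled CPM in WT26, WT1 and WT4, which stand for 129, 66 and 53 reads in the HIP libraries, against 1, 19 and 259 reads in the WT libraries. The WT libraries enclosed the HIP libraries, with a coefficient of variation of 155% in WT and 48.8% in HIP. The log2 difference was 1.64 (SE 1.42, 95% interval -1.64 to 4.91, adjusted p = 0.814 by limma), and it was 0.09 without WT26 and 3.32 without WT4. Beta cell markers did not give the same order of libraries, with sums of 34.4, 189 and 5092 scaled CPM in HIP30, HIP2 and HIP3, against 38.9, 128 and 11360 scaled CPM in WT26, WT1 and WT4. Only Pdx1 among 10 beta cell markers had reads in HIP30, the HIP library with the most Abcc8. Markers of other islet endocrine cells had sums of 351, 257 and 163 scaled CPM in HIP30, HIP2 and HIP3, against 12.3, 54.0 and 339.7 scaled CPM in WT26, WT1 and WT4. That is the same order of the 6 libraries as for Abcc8 except that HIP30 and WT4 change places. Within HIP the order rested on Sst, with 246, 172 and 10.2 scaled CPM in HIP30, HIP2 and HIP3. Without Sst, HIP3 had the highest sum of the HIP libraries. Of the 10 markers of other islet endocrine cells, 2 were read in all libraries, and 8 were at 0 in WT26, where Abcc8 had 1 read. The part of such cells in the Abcc8 values was not tested.

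Abcc8 works with the pore subunit Kcnj11. Kcnj11 had 8.57, 4.46 and 3.74 scaled CPM in HIP30, HIP2 and HIP3, against 4.41, 2.40 and 9.42 scaled CPM in WT26, WT1 and WT4. Its libraries overlapped, with a log2 difference of 0.17 (SE 0.59, adjusted p = 0.966 by limma). Kcnj8, the pore subunit known from vascular smooth muscle and pericytes, had 3.10, 5.56 and 5.33 scaled CPM in HIP30, HIP2 and HIP3, against 8.76, 10.7 and 13.1 scaled CPM in WT26, WT1 and WT4. All HIP libraries were below all WT libraries, by a log2 difference of -1.23 (SE 0.40, adjusted p = 0.691 by limma). Smooth muscle and pericyte markers had sums of 327, 357 and 516 scaled CPM in HIP30, HIP2 and HIP3, against 580.3, 517 and 559.9 scaled CPM in WT26, WT1 and WT4. HIP3, at 515.7 scaled CPM, lay just under WT1, at 516.6 scaled CPM. Notch3 was the largest single part of the sum in every library, and without it HIP3 exceeded WT26, so that the groups overlapped. Of those 11 markers, 10 were read in all libraries and Cnn1 was at 0 in some. Their part in the Kcnj8 values was not tested.

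**Figure D3:**
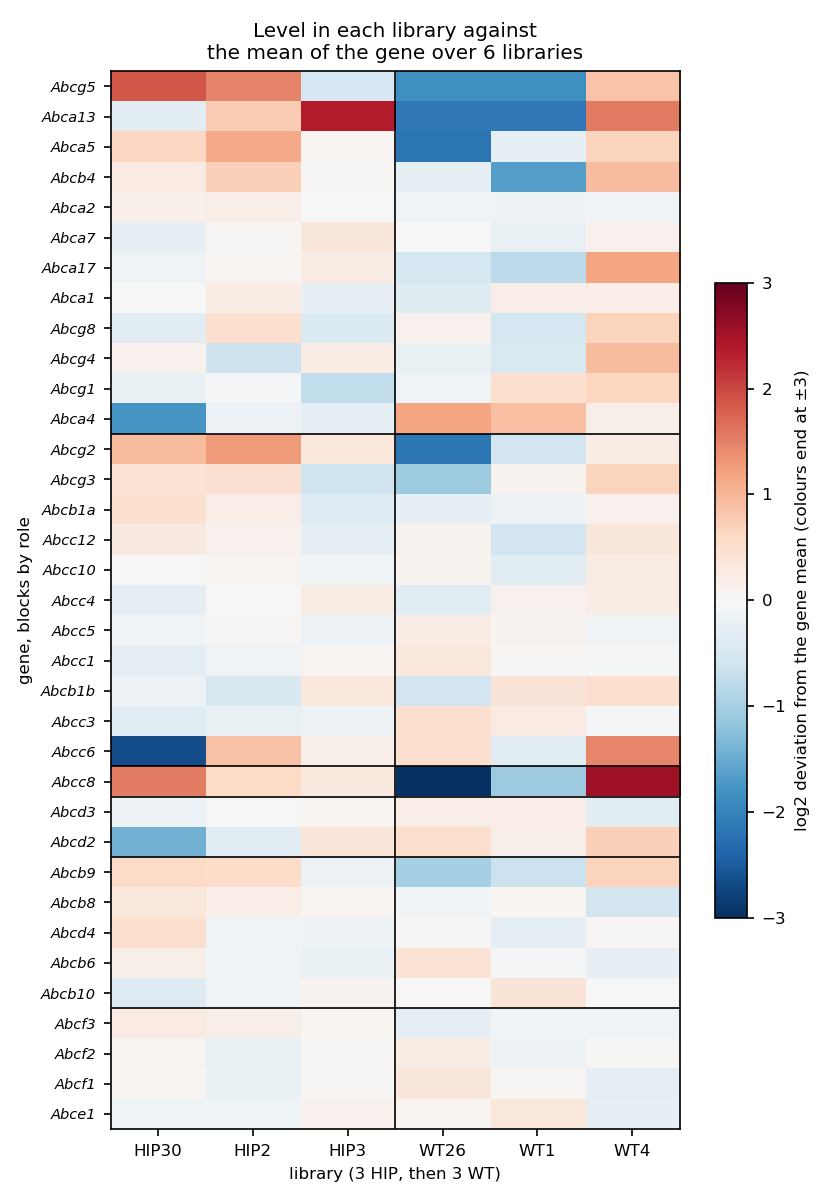
Log2 deviation of 35 of the 37 tested members in each of 3 HIP and 3 WT libraries from the mean of the gene over all 6 libraries, in blocks by role. WT4 is the highest library for 13 of the 37 members, and Abcc8 spans the widest range, between WT26 and WT4.

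The 3 peroxisomal carriers had negative log2 differences, though that of Abcd3 turned positive with library totals, and 0 passed limma's test. Abcd3, which carries branched chain and bile acid precursors, had 203, 231 and 239 scaled CPM in HIP30, HIP2 and HIP3, against 263, 262 and 184 scaled CPM in WT26, WT1 and WT4. WT4 was the lowest of the 6, and the log2 difference was -0.06 (SE 0.20, 95% interval -0.51 to 0.40, adjusted p = 0.965 by limma), or 0.02 with library totals. Abcd2, a fatty acid carrier, had 4, 11 and 19 reads in HIP30, HIP2 and HIP3, against 22, 16 and 25 reads in WT26, WT1 and WT4.

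Of 27 listed genes of peroxisome biogenesis and beta-oxidation, 25 were tested, with 16 positive and 9 negative differences, a median of 0.11 and 0 past limma's test. The groups overlapped in all 25, while 9.54% of all tested genes had no overlap. Pex16, an early factor of peroxisome assembly, had 25.8, 17.1 and 15.1 scaled CPM in HIP30, HIP2 and HIP3, against 33.3, 22.4 and 23.2 scaled CPM in WT26, WT1 and WT4, a log2 difference of -0.46 (SE 0.30, adjusted p = 0.736 by limma). Pex6, an ATPase that recycles the import receptor, had 13.1, 9.10 and 14.9 scaled CPM in HIP30, HIP2 and HIP3, against 6.26, 9.09 and 10.3 scaled CPM in WT26, WT1 and WT4, a log2 difference of 0.53 (SE 0.36, adjusted p = 0.742 by limma). In each gene 1 HIP library lay within the WT range.

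Among the 6 members of mitochondria and lysosomes, 3 differences were positive and 3 negative, with a median of 0.02, and 0 passed limma's test. The groups overlapped in all 6, too few genes to be read against the 9.54% of all tested genes without overlap. Abcb10, which supports heme synthesis, lay at 23.2 to 32.8 scaled CPM in HIP and 30.03 to 39.9 scaled CPM in WT. Abcb8, of the inner mitochondrial membrane, lay at 20.2 to 24.4 scaled CPM in HIP and 13.4 to 20.3 scaled CPM in WT, so that HIP3 lay just under WT1 and the other HIP libraries above all WT libraries. Abcb6, a porphyrin carrier, lay at 43.4 to 55.9 scaled CPM in HIP and 41.9 to 66.2 scaled CPM in WT. The lysosomal peptide carrier Abcb9 lay at 5.64 to 9.60 scaled CPM in HIP and 3.16 to 10.3 scaled CPM in WT. Abcd4, needed to release cobalamin from lysosomes, lay at 14.2 to 21.8 scaled CPM in HIP and 13.0 to 16.05 scaled CPM in WT.

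Of 16 genes of iron-sulfur cluster and heme synthesis, all tested, 5 differences were positive and 11 negative, with a median of -0.14 and 0 past limma's test. Urod, a decarboxylase of heme synthesis, had 46.9, 40.1 and 42.6 scaled CPM in HIP30, HIP2 and HIP3, against 95.8, 64.7 and 61.6 scaled CPM in WT26, WT1 and WT4. All HIP libraries were below all WT libraries, by a log2 difference of -0.75 (SE 0.22, adjusted p = 0.691 by limma). Ppox, a later oxidase of the same pathway, had 48.6, 30.2 and 23.1 scaled CPM in HIP30, HIP2 and HIP3, against 22.2, 17.4 and 26.6 scaled CPM in WT26, WT1 and WT4. HIP3 was below WT4, and the log2 difference was 0.57 (SE 0.33, adjusted p = 0.694 by limma).

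The 4 soluble members that act on ribosomes gave 1 positive and 3 negative log2 differences, with a median of -0.07 and 0 past limma's test. Abce1, which splits ribosomes for reuse after termination, had 204, 205 and 245 scaled CPM in HIP30, HIP2 and HIP3, against 233, 278 and 188 scaled CPM in WT26, WT1 and WT4. The groups overlapped, with a log2 difference of -0.08 (SE 0.20, 95% interval -0.54 to 0.37, adjusted p = 0.947 by limma), and the sign turned when WT1 was left out. Abcf3, a relative of the yeast protein Gcn20, which works with Gcn1 in amino acid sensing, had 68.6, 64.5 and 59.9 scaled CPM in HIP30, HIP2 and HIP3, against 47.7, 52.8 and 53.7 scaled CPM in WT26, WT1 and WT4. All HIP libraries were above all WT libraries, with means of 64.3 ± 4.36 scaled CPM in HIP and 51.4 ± 3.25 scaled CPM in WT (SD, n = 3 each). The log2 difference of Abcf3 was 0.32 (SE 0.17, 95% interval -0.08 to 0.73, adjusted p = 0.691 by limma). Abcf1, which binds the initiation factor that carries the initiator tRNA, lay at 101 to 121 scaled CPM in HIP and 96.1 to 148 scaled CPM in WT. Abcf2 lay at 32.7 to 40.4 scaled CPM in HIP and 34.0 to 44.1 scaled CPM in WT.

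Among 11 genes of ribosome recycling and of the amino acid sensing pathway, 3 differences were positive and 8 negative, with a median of -0.13 and 0 past limma's test. Eif2ak4, the kinase that answers uncharged tRNA, had 229, 196 and 161 scaled CPM in HIP30, HIP2 and HIP3, against 123, 124 and 132 scaled CPM in WT26, WT1 and WT4. All HIP libraries were above all WT libraries, by a log2 difference of 0.62 (SE 0.18, adjusted p = 0.691 by limma). Eif2b1, a subunit of the exchange factor that this kinase brings to a halt, had 34.9, 34.3 and 31.1 scaled CPM in HIP30, HIP2 and HIP3, against 52.1, 45.8 and 39.6 scaled CPM in WT26, WT1 and WT4, again without overlap, a log2 difference of -0.45 (SE 0.20, adjusted p = 0.691 by limma).

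The members differed in how much they varied between libraries of 1 group. The coefficient of variation was under 20% in both HIP and WT for 12 of the 37 tested members, among them Abca2, Abcb10, Abcc1, Abcc3, Abcc4, Abcc5, Abcc10, Abcd3, Abce1, Abcf2 and Abcf3. Over the 37, its median was 19.0% in HIP and 21.6% in WT, against 22.7% in HIP and 24.9% in WT over all tested genes. It was higher in WT for 27 of the 37, and for 56.6% of all tested genes. WT4 was the highest library for 13 of the 37, or 35.1%, against 12.9% of all tested genes, and among them were Abca17, Abcb4, Abcc8 and Abcg4. WT26 was the lowest library for 11 of the 40 members, counting Abca13 and Abcg5, where WT1 was at 0 reads as well. In Abca15 and Abcb11 WT26 was also at 0 reads, but these ties were counted for HIP30. The share over all genes was not computed for WT26. WT4 had the fewest genes without a read, 672, against 1837 to 2822 in the other libraries, with the most in WT26. The part of the broader detection in WT4 in its high values was not tested.

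**Figure D4:**
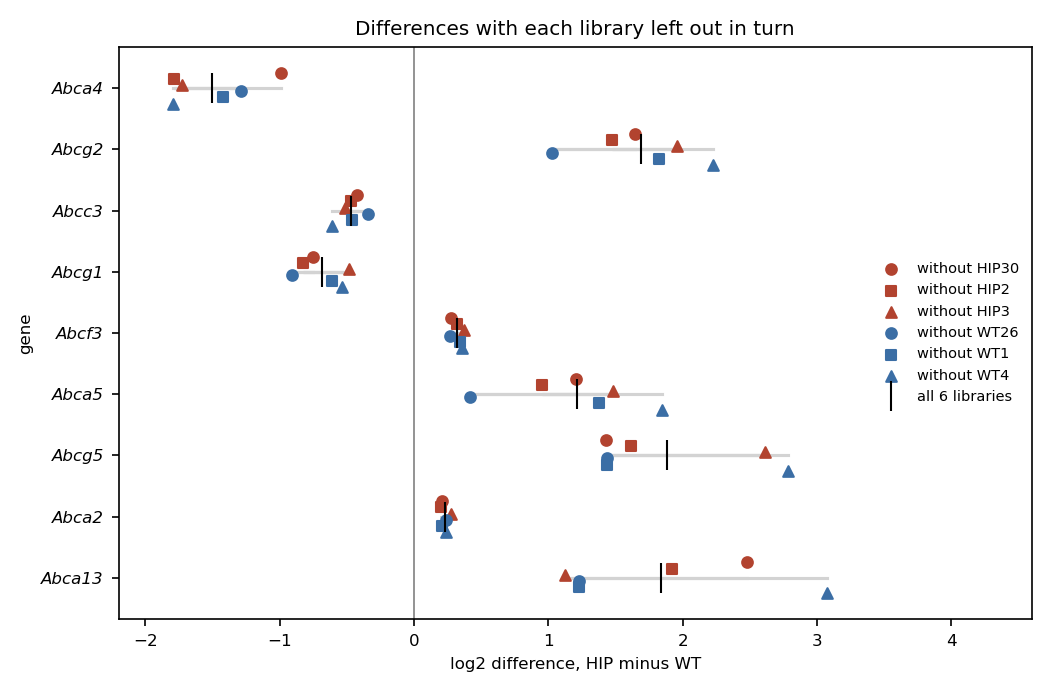
Log2 difference, HIP minus WT, of 9 of the 10 tested members with the lowest unadjusted p when each library is left out in turn (markers) and with all 6 libraries (black bar). All 9 kept their sign, Abca2 and Abcf3 moved least, and Abca5 moved between 0.42 without WT26 and 1.85 without WT4.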

How the data were processed

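RNA from laser-captured pancreatic duct glands was sequenced in 3 HIP and 3 WT libraries. Per the labels' protocols, RNA came from a small-sample extraction kit and libraries from a very low input kit. Per the submitters' processing notes, STAR, HTSeq, edgeR, limma and the genome build rn5 were used, with no versions, and no source used here gives the strandedness. The authors deposited log2 CPM values with a prior of 0.25 reads, 15679 entries per library, from which whole reads were recovered within 0.1 reads.

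Values were scaled with TMM factors (0.933 to 1.09, own code) and tested on log2 of scaled CPM plus 0.121 CPM (2 reads) with the intensity-trend test of limma 3.58.1 (R 4.3.3), which understates the change of low genes. A gene needed 0.61 CPM, or 10 reads in a library of median depth, in 3 libraries and 15 reads in all, which left 12102. P-values were adjusted by Benjamini-Hochberg over all of them. Groups came from the genotype labels; the replicate numbers of the groups do not match, so nothing was paired. The steps were tested on simulated data.

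Differences are printed for the 10 tested members with the lowest unadjusted p, for a set of members of well known function where tested, and for the 2 lowest genes of each partner list. The members and lists were chosen with earlier results of these data known. Alternatives covered scaling, pseudocount, filter, limma-voom with and without sample weights, the number series in the titles and each library left out. Promoter sequences are RefSeq's (GRCr8), while the reads were counted on rn5, so no coordinates were joined to counts. Abca3 is not analysed here, and the values of some genes that this rule gives are not reported here.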

Additional observations from a re-analysis of the deposited data

How the results depend on the processing

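No member and no gene passed limma's adjusted test under any of the 15 alternatives, and the smallest adjusted p of a member was 0.157. The count of members at an unadjusted p under 0.05 stayed at 3 under every scaling, pseudocount, filter and plain voom setting, was 4 with the number series in the titles as a term, and 8 with sample quality weights, where 19.7% of all genes reached it. The count ran from 1 to 8 with 1 library left out.

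Of 20 members followed across settings, 15 kept their sign under every alternative that fitted them. The stricter filter left out Abcg5 and Abca13. The other 5 were close to 0. The log2 difference of Abca1 was 0.0559 with library totals and 0.0446 with sample quality weights, that of Abcc4 0.0480 and that of Abcd3 0.0167 with library totals. With 1 library left out, Abca1 ran from -0.20 to 0.10, Abcb1a from -0.0034 to 0.43, Abcc4 from -0.19 to 0.11, Abcd3 from -0.23 to 0.0309, Abce1 from -0.23 to 0.0520 and the channel subunit Kcnj11 from -0.30 to 0.66. The cause was not tested. Abca4 ran from -1.79 to -0.99, Abcg2 from 1.03 to 2.23 and Abcc3 from -0.61 to -0.34.

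No paired analysis was possible because the replicate numbers of the HIP and WT libraries do not match. Depth limits Abca15, Abcb11 and Abcc2, which were fitted only with no filter, and Abcg5 and Abca13, whose size depends on the reads added to a count of 0. The number series was not stated to be a batch.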
